A study of Mus musculus with 8 samples.

Results

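The transcripts followed here were 10 genes of glucose use in mouse testis: Pgk2, Gapdhs, Ldhc and Pdha2, which are germ cell forms of metabolic enzymes, and Pgk1, Ldha, Ldhb, Pdha1, Hk1 and Slc2a3, which are made in somatic tissues too. They were chosen by gene symbol, though with earlier results of these data known, among 20719 distinct symbols on the array. The array carried 21 probe sets with one of these symbols, of 45101 probe sets in all, with 5 for the germ cell isozymes and 16 for the others. Testes were taken at postnatal day 23, and each sample had an Affymetrix Mouse430_2 array of its own. The labels name 5 samples wildtype, numbered 1, 2, 4, 6 and 7, and 3 samples Ctcfl mutant, numbered 3, 5 and 8. The mutant animals were Ctcfl del/del, with a run of exons from the first onward removed from the gene of CTCFL, a testis-specific relative of the zinc finger protein CTCF. The controls are littermates with 1 deleted allele (Ctcfl del/+) in the study's text but wildtype in the labels, and the latter name is kept here. The mice had a C57/Bl6 background, and the deletion was made in vivo by crossing mice from targeted embryonic stem cells with mice that carry an actin-driven Cre transgene. The methods do not state whether each sample was a testis of its own animal, so that the p-values measure the spread between these samples. Transcripts of Ctcfl were not analysed here, and the genotype labels therefore had no check from the targeted gene.

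Glycolysis turns glucose into pyruvate, which is either reduced to lactate by lactate dehydrogenase or passed into mitochondria and oxidised by the pyruvate dehydrogenase complex. Male germ cells are known for using isozymes of their own at several of these steps. Pgk2 and Pdha2 are intronless copies of Pgk1 and Pdha1, which lie on the X chromosome and are silenced there during meiosis. Ldhc is made from the spermatocyte stage onward, and Gapdhs is a glyceraldehyde-3-phosphate dehydrogenase of spermatids that is bound to the sperm tail. Slc2a3 encodes the glucose transporter GLUT3 and Hk1 a hexokinase, which adds the first phosphate to glucose. These genes have no germ cell partner among the 10, and for Gapdhs the somatic partner Gapdh was present as control probe sets alone.

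The promoters of the isozyme pairs are shown first, because they let each germ cell gene be set beside its somatic relative in sequence, apart from any array. Each stretch is the 250 bases before the annotated start in RefSeq on GRCm38.p6, 5′ to 3′ on the gene's strand, with every CG dinucleotide in capitals. RefSeq's promoter table held 9 of the 10 genes with 13 starts, and Slc2a3 was not among them. The first listed start is given for Pgk2 (chr17:40208610-40208859, minus strand), Gapdhs (chr7:30743682-30743931, minus), Ldhc (chr7:46861013-46861262, plus), Pdha2 (chr3:141212356-141212605, minus), Pgk1 (chrX:106186850-106187099, plus), Ldha (chr7:46845554-46845803, plus) and Pdha1 (chrX:160138431-160138680, minus).
Pgk2: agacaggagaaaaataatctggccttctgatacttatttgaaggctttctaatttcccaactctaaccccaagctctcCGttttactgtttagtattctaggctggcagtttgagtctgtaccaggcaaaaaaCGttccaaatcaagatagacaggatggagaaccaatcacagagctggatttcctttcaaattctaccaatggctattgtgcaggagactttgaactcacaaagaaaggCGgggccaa
Gapdhs: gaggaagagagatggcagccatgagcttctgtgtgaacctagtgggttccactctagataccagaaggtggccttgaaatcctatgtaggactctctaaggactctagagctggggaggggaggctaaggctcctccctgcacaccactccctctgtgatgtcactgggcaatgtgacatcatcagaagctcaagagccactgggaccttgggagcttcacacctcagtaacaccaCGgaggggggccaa
Ldhc: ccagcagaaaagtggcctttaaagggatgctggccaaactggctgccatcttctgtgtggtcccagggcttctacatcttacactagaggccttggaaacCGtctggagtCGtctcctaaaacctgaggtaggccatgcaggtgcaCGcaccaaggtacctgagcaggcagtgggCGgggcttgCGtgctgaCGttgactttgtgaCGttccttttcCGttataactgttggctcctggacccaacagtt
Pdha2: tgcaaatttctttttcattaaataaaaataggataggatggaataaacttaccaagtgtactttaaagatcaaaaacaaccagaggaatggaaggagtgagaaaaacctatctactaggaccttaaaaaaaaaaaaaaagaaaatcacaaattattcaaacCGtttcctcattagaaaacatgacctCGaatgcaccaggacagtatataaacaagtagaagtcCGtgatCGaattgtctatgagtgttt
Pgk1: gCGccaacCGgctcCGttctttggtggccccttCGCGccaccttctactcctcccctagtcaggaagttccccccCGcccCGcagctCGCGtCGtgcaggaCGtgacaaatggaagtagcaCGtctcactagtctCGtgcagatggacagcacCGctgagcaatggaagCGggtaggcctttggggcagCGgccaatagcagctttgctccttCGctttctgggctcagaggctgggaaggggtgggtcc
Ldha: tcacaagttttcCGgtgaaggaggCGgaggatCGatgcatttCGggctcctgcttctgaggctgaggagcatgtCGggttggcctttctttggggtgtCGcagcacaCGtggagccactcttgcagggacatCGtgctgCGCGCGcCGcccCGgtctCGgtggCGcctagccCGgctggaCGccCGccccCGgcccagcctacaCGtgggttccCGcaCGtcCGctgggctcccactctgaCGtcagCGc
Pdha1: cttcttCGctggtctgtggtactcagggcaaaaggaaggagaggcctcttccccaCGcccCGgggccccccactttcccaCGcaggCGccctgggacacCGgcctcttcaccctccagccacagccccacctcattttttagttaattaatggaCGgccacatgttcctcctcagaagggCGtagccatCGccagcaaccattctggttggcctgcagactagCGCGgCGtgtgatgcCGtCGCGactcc

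At the first listed starts, CG dinucleotides were fewer before Pgk2, Ldhc and Pdha2 than before their somatic relatives. Pgk2 had 3 and Pgk1 17. Ldhc had 8 and 3 at its 2 starts, against 25 and 9 for Ldha and 14 for Ldhb. Pdha2 had 4 and Pdha1 15, while Gapdhs had 1 and 0. Hk1, which uses several starts, had 1 at the first and 14 at the second. Over all 32851 promoters of the table the median was 6, with quartiles of 2 and 16.

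Short motifs were searched on both strands of the same windows. TGACG, the core of the site of cyclic AMP response factors, was found in 17.8% of all promoters and before Ldhc (2 matches) and Ldha (2 and 1 at its 2 starts). A longer motif of the same family, TGANGTCA, lay in 7.49% of all promoters, with 2 matches at each Gapdhs start and 1 each before Ldha and Hk1. The Ldha match holds both TGACG matches of its first start, 1 on each strand of a single site, whereas the 2 of Ldhc are separate. The GC box GGGCGG, in 32.7% of all, was present before Ldhc and Pgk1 with 1 match each and before Ldha with 2. CCAAT, in 33.8% of all, occurred 2 times before Pgk2 and 1 time each before Pgk1 and Ldhb.

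Before any comparison of genotypes, 2 arrays have to be set apart. Wildtype replicate 7 and mutant replicate 8 had scores of 40.2 and 38.2 on principal component 1 (44.9% of the variance), against -24.8 to -3.10 for the other 6 arrays. In what follows, a departure is the log2 level on one of these arrays minus the mean of the other arrays of its own group. All 15 spermatid markers, among them the protamines Prm1 and Prm2 and the transition proteins Tnp1 and Tnp2, departed upward on both arrays, and the mean of the list departed by 1.59 and 1.62. The sizes were unequal, and Acr (0.06 and 0.03) and Crisp2 (0.07 and 0.08) hardly moved. The 7 fat markers with a probe set also departed upward on both, by 1.59 and 2.14 on average, although Lep and Cidec were below the array median on every array. On the linear scale the summed level of the fat list ran from 505.7 to 2933 in wildtype and from 406.6 to 2829 in mutant arrays. The 11 spermatocyte markers departed by 0.10 and 0.03 on average. The log2 signal of the control probe set for the 3′ end of Gapdh lay 0.31 and 0.33 above that for its 5′ end on these arrays, and 0.04 to 0.22 above it on the others. The same measure for actin was 1.13 and 1.03 on these arrays and 0.75 to 1.03 on the others, so that it did not set mutant replicate 8 apart. Genotype results that turn on these arrays are also given without both, or with the pair as a block of its own.

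**Figure D1:**
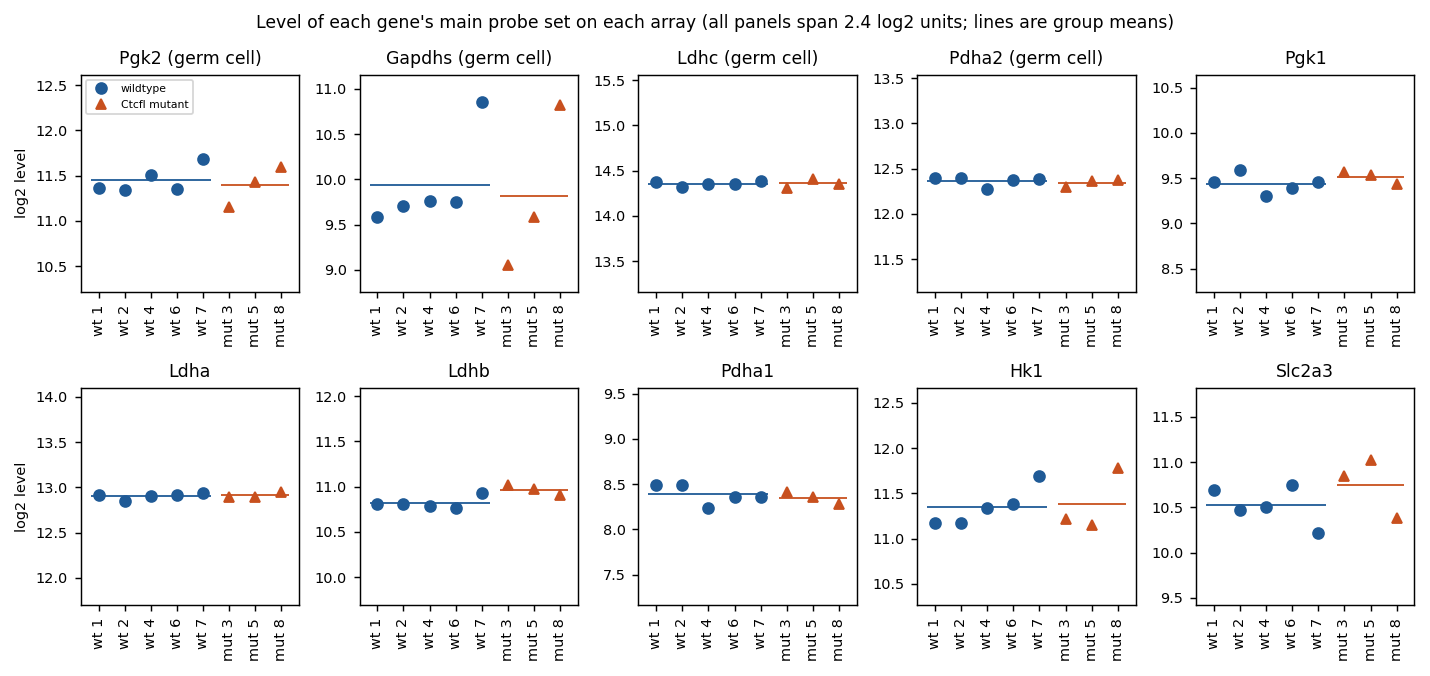
Log2 level of the main probe set of each of the 10 genes on each array, with wildtype arrays as circles, Ctcfl mutant arrays as triangles and group means as lines, all panels spanning the same number of log2 units. Gapdhs stood above 10.8 on wildtype replicate 7 and mutant replicate 8 and below 9.8 on the other arrays, whereas Ldhc, Pdha2 and Ldha varied little.

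The entry of glucose was followed through Slc2a3, which had 4 probe sets. The one taken as main, 1421924_at, read 10.69, 10.47, 10.51, 10.75 and 10.22 on the log2 scale in wildtype replicates 1, 2, 4, 6 and 7, and 10.85, 11.02 and 10.38 in mutant replicates 3, 5 and 8. The lowest value of either genotype was that of the array set apart, and the groups overlapped. The difference between mutant and wildtype was 0.23 (SE 0.16, 95% interval -0.12 to 0.58). A second probe set, 1427770_a_at, moved in the same way, with values of 8.57 to 9.30 in wildtype and 8.64 to 9.59 in mutant testis and a difference of 0.18 (SE 0.22). On wildtype replicate 7 and mutant replicate 8 these probe sets departed by -0.38 and -0.56 and by -0.57 and -0.86.

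Without both arrays, the values of both Slc2a3 probe sets no longer overlapped between the genotypes. The differences over 2 mutant and 4 wildtype arrays were 0.34 (SE 0.10) for 1421924_at and 0.35 (SE 0.11) for 1427770_a_at, each at a limma adjusted p of 0.751. With the pair as a block they were 0.29 (SE 0.09) and 0.27 (SE 0.10), with adjusted p of 0.810 and 0.849. The other probe sets of the gene, 1437052_s_at and 1455898_x_at, whose suffixes mark possible hybridisation with related transcripts, read 14.01 to 14.11 and 13.25 to 13.38 over all 8 arrays. Their genotype differences were 0.015 (SE 0.06) and -0.035 (SE 0.06). Both were brighter than the moving probe sets, under a highest level of 14.9 on the arrays. Whether signals flatten near that end was not tested. As the probe sets differed, no single direction is given for Slc2a3.

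**Figure D2:**
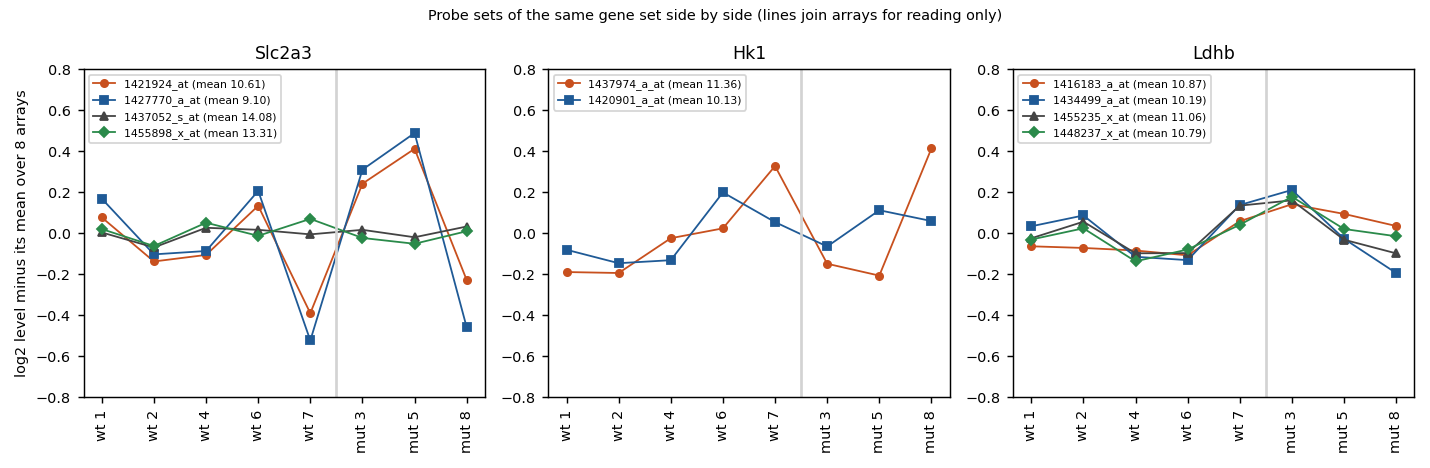
Log2 level minus the mean over 8 arrays for every probe set of Slc2a3, Hk1 and Ldhb, with arrays on the horizontal axis and lines joining arrays for reading only. In Slc2a3, 1421924_at and 1427770_a_at dip together on wildtype replicate 7 and mutant replicate 8, while the other probe sets stay within 0.13 of log2 range.

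Hk1, which traps glucose inside the cell, had 2 probe sets. Its main probe set, 1437974_a_at, read 11.17, 11.17, 11.34, 11.39 and 11.69 in the wildtype replicates in order, and 11.21, 11.16 and 11.78 in the mutant ones. The highest value in each genotype came from the array set apart, with departures of 0.42 and 0.59, and the groups overlapped. The genotype difference was 0.03 (SE 0.16, 95% interval -0.33 to 0.39) over all arrays and -0.08 (SE 0.09) without the pair. The second probe set, 1420901_a_at, departed by 0.09 and 0.04 and differed by 0.06 (SE 0.09) between the genotypes.

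Gapdhs, the germ cell enzyme of the step that yields NADH in glycolysis, varied most of the germ cell isozymes. Its single probe set read 9.59, 9.71, 9.76, 9.75 and 10.86 on the log2 scale in wildtype replicates 1, 2, 4, 6 and 7, and 9.06, 9.58 and 10.82 in mutant replicates 3, 5 and 8. The 2 high values, 1 in each genotype, were those of the arrays set apart. They departed by 1.16 and 1.50, which placed Gapdhs at percentiles 99.3 and 99.6 of all probe sets on those arrays. Over all 8 arrays the groups overlapped and the difference between mutant and wildtype was -0.11 (SE 0.39, 95% interval -0.98 to 0.76).

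Within each set of arrays the Gapdhs values were less spread. Mutant replicates 3 and 5 lay below all 4 remaining wildtype arrays, replicate 5 only just, at 9.583 against 9.588 on wildtype replicate 1. The difference was -0.38 (SE 0.13, limma adjusted p = 0.751). Mutant replicate 8 minus wildtype replicate 7 was -0.038, from 1 array each. With the pair as a block the difference was -0.29 (SE 0.12, limma adjusted p = 0.849). Spermatid markers moved with it. Without the pair their list mean was 8.97 and 9.30 in mutant and 9.15 to 9.62 in wildtype arrays, a difference of -0.34, and their part in the Gapdhs difference was not tested. Summed on the linear scale, the 15 spermatid markers ran from 20623 to 44566 in wildtype and from 19321 to 36555 in mutant arrays, the highest value of each being that of the array set apart. In RNA of a whole testis, fewer cells of a type and less RNA per cell cannot be told apart. The control probe sets of somatic Gapdh departed the other way on the arrays set apart, by -0.13 and -0.23 at the 3′ end and by -0.26 and -0.51 at the 5′ end.

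**Figure D3:**
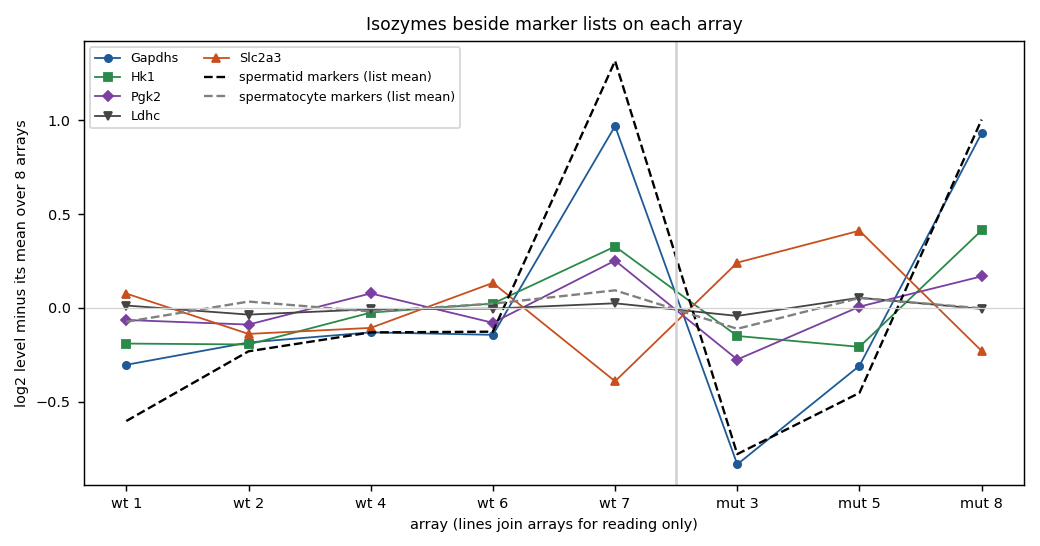
Log2 level minus the mean over 8 arrays for Gapdhs, Hk1, Pgk2, Ldhc and Slc2a3 beside the list means of spermatid and spermatocyte markers, arrays on the horizontal axis, lines joining arrays for reading only. Gapdhs and the spermatid list are high on wildtype replicate 7 and mutant replicate 8 and lowest on mutant replicate 3, whereas Ldhc and the spermatocyte list stay close to 0 on every array.

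Phosphoglycerate kinase makes the first ATP of glycolysis. The germ cell form Pgk2 read 11.36, 11.34, 11.51, 11.35 and 11.68 in the wildtype replicates in order and 11.15, 11.44 and 11.60 in the mutant ones. The arrays set apart held the highest value of each genotype, 0.29 and 0.30 above the rest of their groups, a smaller departure than that of Gapdhs. The genotype difference of Pgk2 was -0.05 (SE 0.11, 95% interval -0.31 to 0.20), and -0.10 (SE 0.10) without the pair of arrays.

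The X-linked Pgk1 was measured by 3 probe sets. In its main probe set, 1417864_at, the wildtype replicates read 9.45, 9.59, 9.30, 9.39 and 9.46 and the mutant ones 9.56, 9.54 and 9.44. The values of the genotypes were interleaved, with a difference of 0.08 (SE 0.08, 95% interval -0.10 to 0.25). The other Pgk1 probe sets differed by 0.055 (SE 0.09) and 0.04 (SE 0.08). All 3 lay higher in mutant testis by amounts within the error.

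Lactate dehydrogenase C, the germ cell form that interconverts pyruvate and lactate, was among the steadiest transcripts of the group. Ldhc read 14.37, 14.32, 14.35, 14.35 and 14.38 in the wildtype replicates and 14.31, 14.41 and 14.35 in the mutant ones with its main probe set 1415846_a_at. Its whole range over 8 arrays was 0.10, where the median range of all probe sets was 0.38. The level lay close to the highest of any probe set on these arrays, 14.9, and a flattening of signals near that end was not tested. The genotype difference was 0.0039 (SE 0.06, 95% interval -0.13 to 0.13), and the second probe set differed by 0.016 (SE 0.06).

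Ldha, the muscle-type subunit, read 12.92, 12.85, 12.90, 12.91 and 12.94 in wildtype and 12.89, 12.90 and 12.95 in mutant testis, a difference of 0.0070 (SE 0.06). The heart-type subunit Ldhb came nearest to the unadjusted threshold of all 21 probe sets. With its main probe set 1416183_a_at, Ldhb read 10.81, 10.80, 10.79, 10.77 and 10.93 in wildtype and 11.02, 10.97 and 10.91 in mutant testis. Wildtype replicate 7 was the only wildtype array above any mutant array, and so the groups overlapped. The difference was 0.14 (SE 0.07, 95% interval -0.0014 to 0.29, limma adjusted p = 1.0), and 0.20 (SE 0.07, limma adjusted p = 0.751) without the pair.

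The other 3 probe sets of Ldhb gave smaller differences. They were -0.0058 (SE 0.10) for 1434499_a_at, 0.016 (SE 0.08) for 1455235_x_at and 0.10 (SE 0.07) for 1448237_x_at. The mean over the 4 probe sets differed by 0.06, so that the size of the Ldhb difference depended on the probe set.

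Pyruvate dehydrogenase E1 alpha, the catalytic subunit that commits pyruvate to oxidation, is encoded by Pdha2 in spermatocytes and spermatids and by X-linked Pdha1 elsewhere. Pdha2 read 12.40, 12.40, 12.28, 12.37 and 12.38 in the wildtype replicates and 12.29, 12.36 and 12.37 in the mutant ones. All mutant values lay inside the wildtype range, and the difference was -0.024 (SE 0.06, 95% interval -0.16 to 0.11). Pdha1 read 8.49, 8.49, 8.24, 8.35 and 8.36 in wildtype and 8.42, 8.35 and 8.28 in mutant testis with its main probe set 1418560_at, a difference of -0.036 (SE 0.08). The second Pdha1 probe set differed by 0.029 (SE 0.09), in the other direction.

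**Figure D4:**
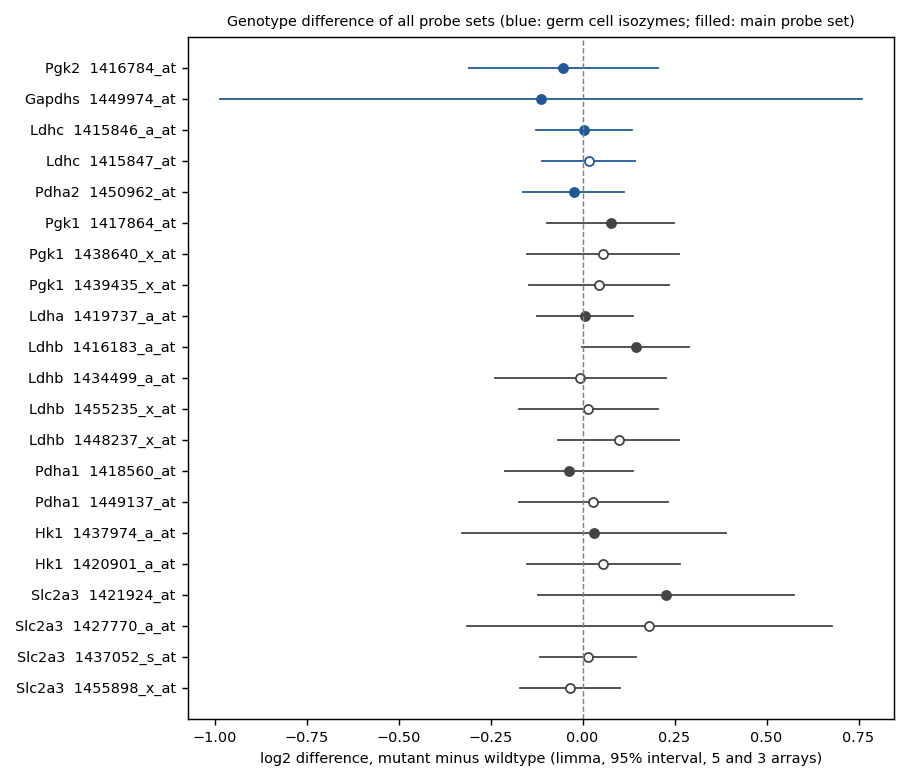
Difference in log2 level between mutant and wildtype testis for each of the 21 probe sets, with the 95% interval of limma over 5 and 3 arrays, germ cell isozymes in blue and the main probe set of each gene filled. Every interval includes 0, and that of Gapdhs, from -0.98 to 0.76, is the widest.

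Counted together, none of the 10 genes passed the genotype comparison. Of the 21 probe sets 0 had a limma adjusted p under 0.05, against 0% of all 45101. At an unadjusted p under 0.05 there were also 0 of 21, against 1564 or 3.47% of all probe sets, and 0 of 21 had groups without overlap, against 1216 or 2.7% of all. The median difference was 0.016 over the 21 probe sets, with 15 higher and 6 lower in mutant testis. Over all 45101 probe sets it was 0.0032, with 23219 higher and 21882 lower. For the germ cell isozymes the median was -0.024, with 2 higher and 3 lower, and for the others 0.04, with 13 higher and 3 lower. The 16 probe sets of the others stand for 6 genes, so that this split counts some genes more than once.

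The counts moved when the pair of arrays was left out or fitted as a block. Without both arrays, 4 of 21 probe sets had groups without overlap, against 14.9% of all. These were the probe set of Gapdhs (lower in mutant testis, though only just), the main probe set of Ldhb and the pair of moving Slc2a3 probe sets (higher). The same 4 had an unadjusted p under 0.05 in that fit, against 6.55% of all. With the block the count was 3 of 21 (Gapdhs lower, Slc2a3 higher at both probe sets), against 5.86% of all, and 0 of 21 passed after adjustment. A departure of at least 0.5 in the same direction on both arrays was seen for 2 of 21 probe sets, against 2.91% of all. These were Gapdhs upward, where 2.28% of all probe sets departed, and Slc2a3 1427770_a_at downward, where 0.63% did.

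Each germ cell isozyme was then set against its somatic relative within an array, which asks whether the members of a pair changed unequally between the genotypes. An exact permutation test over the arrays, two-sided, was run for each of the 4 pairs. With 5 against 3 arrays the smallest value of this exact test is p = 0.0357. Levels of different probe sets are not comparable, so only the change of the difference carries a meaning. For Ldhc minus Ldhb the log2 difference was 3.56, 3.52, 3.56, 3.59 and 3.45 in wildtype replicates 1, 2, 4, 6 and 7, and 3.30, 3.44 and 3.44 in mutant replicates 3, 5 and 8. The groups did not overlap, although wildtype replicate 7 lay only just above mutant replicates 5 and 8. The change was -0.14 (95% interval -0.26 to -0.024), with an exact permutation p = 0.0357 and p = 0.143 after adjustment over the 4 pairs. With only 1 pair at the smallest exact p, no adjusted p over the 4 pairs can fall under 0.05. Between mutant replicate 8 and wildtype replicate 7 alone the difference was -0.0066. With the mean over all probe sets of each gene it was -0.05. Since Ldhc varied by 0.10 over all arrays, the change of this pair was close in size to the 0.14 of the main Ldhb probe set and adds little to it.

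The remaining pairs had overlapping groups. Pgk2 minus Pgk1 was 1.75 to 2.23 in wildtype and 1.59 to 2.16 in mutant testis, a change of -0.13 (95% interval -0.55 to 0.29, exact permutation p = 0.464, adjusted p = 0.929). Ldhc minus Ldha was 1.44 to 1.47 in wildtype and 1.40 to 1.51 in mutant testis. Its change was -0.0031 (95% interval -0.067 to 0.061, exact permutation p = 1.0). Pdha2 minus Pdha1 was 3.91 to 4.04 and 3.88 to 4.09, a change of 0.013 (95% interval -0.13 to 0.16, exact permutation p = 0.786, adjusted p = 1.0). Without both arrays set apart no pair could reach a p below 0.133.

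**Figure D5:**
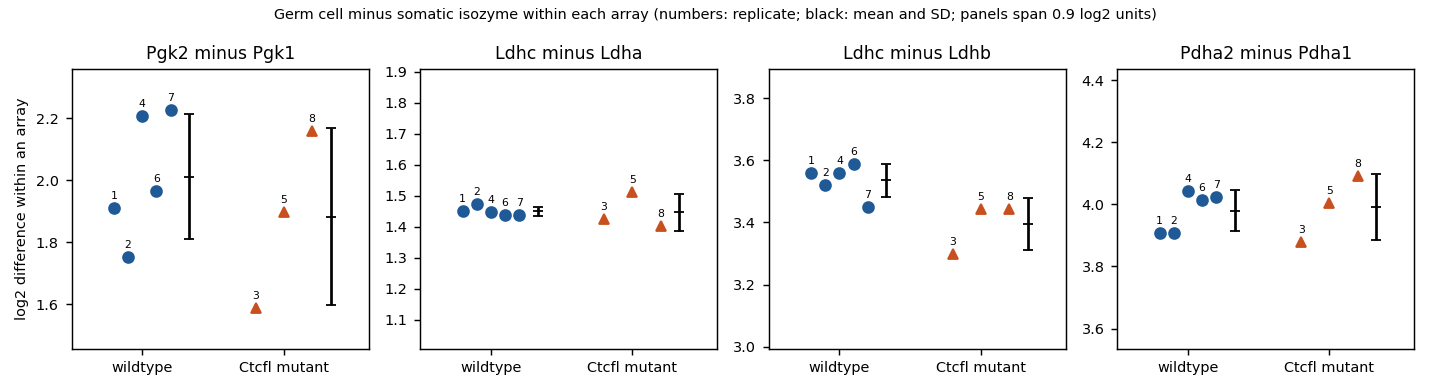
Log2 difference between germ cell and somatic isozyme within each array for the 4 pairs, points numbered by replicate, bars giving the mean and SD, and all panels spanning the same number of log2 units. For Ldhc minus Ldhb the mutant arrays lie at 3.30 to 3.44 and the wildtype arrays at 3.45 to 3.59, while the groups of the other pairs overlap.

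The other genes of glycolysis and of pyruvate and lactate handling were read from lists of 47 genes, of which 43 had 82 probe sets of their own. At an unadjusted p under 0.05, 4 of the 82 (4.88%) passed, with 3 higher, where 1.76% of all probe sets were, and 1 lower, where 1.7% of all were. After limma adjustment 0 of 82 passed. Groups without overlap were seen for 7 of the 82, against 2.7% of all probe sets. They included Pfkm 1416780_at and Pdk1 1423748_at, both higher in mutant testis, by 0.12 (SE 0.06) and 0.10 (SE 0.06). The median difference was 0.017. Pfkl, the liver-type phosphofructokinase of the committed step, accounted for 2 of the higher probe sets. Its main probe set, 1439148_a_at, read 7.996 to 8.16 in wildtype and 8.24 to 8.51 in mutant testis without overlap, a difference of 0.23 (SE 0.08, limma adjusted p = 1.0). The third probe set of Pfkl, 1453541_at, differed by -0.035 (SE 0.08) with overlapping groups.

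Pyruvate kinase, which ends glycolysis, had 2 genes among those with the smallest p. Pklr read 6.25 to 6.54 in wildtype and 6.60 to 6.68 in mutant testis, a difference of 0.19 (SE 0.08), and its 2 other probe sets differed by -0.04 and -0.019. Pkm differed by 0.16 (SE 0.08) with overlapping groups. In the lower direction stood Dlat, the E2 subunit of the pyruvate dehydrogenase complex, with 10.55 to 10.71 in wildtype and 10.38 to 10.48 in mutant testis and a difference of -0.16 (SE 0.07). Slc2a1, the glucose transporter GLUT1, differed by -0.15 (SE 0.10) and Pdp1, a phosphatase that activates pyruvate dehydrogenase, by -0.07 (SE 0.09), both with overlapping groups. The other Slc2a1 probe sets differed by -0.13 (SE 0.11) and 0.04 (SE 0.10). Without the pair of arrays set apart, the main probe sets of Pfkl, Pkm and Pklr differed by 0.28 (SE 0.10), 0.21 (SE 0.10) and 0.12 (SE 0.08). Those of Dlat, Slc2a1 and Pdp1 then differed by -0.14 (SE 0.08), -0.06 (SE 0.11) and -0.018 (SE 0.11).

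On wildtype replicate 7 and mutant replicate 8, 5 of the 82 probe sets departed upward by at least 0.5 on both arrays and 1 downward, where 2.28% and 0.63% of all probe sets did. The upward ones included Aldoart2, a sperm form of aldolase, with departures of 0.82 and 0.99, and a probe set of Aldoa, 1453901_at, with 0.80 and 0.86. They also held Eno3, an enolase (0.67 and 0.67), Slc16a7, the lactate and pyruvate carrier MCT2 (0.72 and 0.61), and 1 probe set of Pfkfb3, a regulator of phosphofructokinase (0.91 and 0.53). The other Aldoa probe sets, all brighter and with an x suffix, departed little, by 0.05 and -0.09, 0.06 and -0.003, and 0.10 and 0.05. The downward one was Pdk4, a kinase that inhibits pyruvate dehydrogenase, at -0.64 and -0.91. These 6 were named because they passed that size, after their values were seen.

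The profile of each germ cell isozyme over the 8 arrays was compared with those of all other genes, by the root mean square difference of log2 levels after centring each probe set. The profiles nearest to Gapdhs were those of Clip4 (0.06), Hsfy2 (0.06) and Iqcf5 (0.07), each with departures of 1.10 to 1.45 on the arrays set apart. Nearest to Pgk2 lay Crtac1 (0.035), Rhno1 (0.04) and Glt8d2 (0.045), although Crtac1 and Glt8d2 were dim, with mean levels of 5.01 and 6.21 under the array medians of 6.40 to 6.45. The nearest to Ldhc were Stt3b (0.012), Larp1b (0.014) and Gkap1 (0.014), all steady and bright at mean levels of 12.84 to 13.65. For Pdha2 they were Palld (0.015), Mbd1 (0.019) and Prcc (0.021). A steady probe set such as that of Ldhc or Pdha2 has a near neighbour in any other steady one, so that these likenesses are descriptions of the 8 arrays.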

How the data were processed

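RNA of the 8 testis samples was extracted with Trizol per the labels, and biotinylated cRNA was hybridised to Mouse430_2 arrays. Per the methods of the study, the authors corrected the background by RMA and applied quantile normalisation with Affymetrix software and R/Bioconductor. The deposited table holds, for each array, the log2 level of every probe set, used here as deposited and without a filter. Group means, log2 differences, folds and p-values in the same table, and 2 further tables with the authors' limma comparison alone, were not used. Tool versions and the annotation build are not given in the sources used here. Precision is limited by how many arrays there are.

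All 45101 probe sets, 64 of them controls, were fitted with lmFit and eBayes of limma 3.58.1 (R 4.3.3), mutant against wildtype, two-sided, with Benjamini-Hochberg adjustment over all. The fit was tested on simulated data. Pairs of isozymes were tested by exact permutation with scipy 1.17.1, and tables and plots were made with Python 3.11.15, numpy 2.4.6, pandas 2.3.3, statsmodels 0.14.6 and matplotlib 3.10.9. The main probe set of a gene is one whose ID lacks an s or x suffix, if there is any, and among those the brightest by mean. Besides the 10 genes, the text names up to 3 pathway genes per direction with the smallest p of their main probe sets, and the 3 genes with the profile nearest to each germ cell isozyme. Aldoart1, Gapdh, Pdhb and Tigar had no probe set of their own in the pathway lists, nor had Nanos2, Hormad1, Insl3 and Plin1 in the marker lists. Symbols came from the table, and 33571 of 38810 probe sets with an Entrez ID matched a single RefSeq gene. Promoters came from RefSeq (GRCm38.p6).

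Alternatives were leaving out each array, leaving out both arrays set apart, fitting that pair as a block (defined from the levels and named by no label), median centring, repeated quantile normalisation, array weights, an intensity trend with a robust prior, probe sets above the median level, a one-way comparison without shared variance, and means over all probe sets of a gene. The genes and lists were chosen with earlier results of these data known. The count of probe sets without overlap on 6 arrays was added after seeing the data.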

Additional observations from a re-analysis of the deposited data

Results flagged for a closer look

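There were 14 measures with 5 wildtype arrays, the levels of the 10 genes and the differences of the 4 pairs. Of these, 3 held a wildtype array far from the rest of its group by Dixon's ratio, where the nominal chance is 1 in 20, or about 0.7. The 14 are not independent, since the pairs are built from the levels. The share over all probe sets is not given, and wildtype replicate 7 is an array set apart. Gapdhs read 10.861 on wildtype replicate 7, and the nearest other wildtype array read 9.761. Ldhb read 10.932 on the same array, with the nearest at 10.810. Pdha2 read 12.278 on wildtype replicate 4, with the nearest at 12.369. The group of 3 mutant arrays was too small for this comparison.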

How the results depend on the processing

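None of the 10 genes passed an adjusted p of 0.05 under any alternative run, and the numbers below concern counts at an unadjusted p under 0.05 or the sign of small differences. The cause of these moves was not tested. After adjustment, 0 probe sets passed in each alternative except the fit with that pair as a block, where 1 did, and it belonged to none of the 10 genes. At an unadjusted p under 0.05, the count over all probe sets was 1564 in the fit reported, 1220 to 2649 when single arrays were left out, 2956 without both arrays set apart, 2644 with the block, and 707 when dim probe sets, under the median mean level, were left out, where fewer were tested. For the 21 probe sets of the 10 genes it was 0 to 3 when single arrays were left out (1 without wildtype replicate 7, 3 without mutant replicate 8), 4 without both arrays, 3 with the block, and 1 each with repeated quantile normalisation, array weights, an intensity trend with a robust prior, bright probe sets alone and the one-way comparison without shared variance. Over all 45101 probe sets, 1621 passed that p without wildtype replicate 7 and 2649 without mutant replicate 8. The counts over all were 1770 with repeated quantile normalisation, 2205 with array weights, 1499 with the intensity trend and 1708 with the one-way comparison. For the 82 pathway probe sets the count was 2 (without mutant replicate 3) to 6, then 7 without both arrays and 9 with the block. Of all probe sets, 6.55% passed without both arrays and 5.86% with the block. Groups without overlap numbered 1216 over 8 arrays and 6707 over 6.

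When single arrays were left out, the log2 difference ran from -0.15 to 0.068 for Pgk2, from -0.61 (without mutant replicate 8) to 0.27 (without mutant replicate 3) for Gapdhs, from -0.022 to 0.026 for Ldhc, from -0.012 to 0.019 for Ldha and from -0.17 to 0.14 for Hk1. For Slc2a3 it ran from 0.09 (without mutant replicate 5) to 0.41 (without mutant replicate 8), beside 0.15 without wildtype replicate 7 and 0.10 with the mean over all 4 probe sets. For the pairs it ran from -0.27 to 0.018 for Pgk2 minus Pgk1, from -0.036 to 0.019 for Ldhc minus Ldha and from -0.037 to 0.069 for Pdha2 minus Pdha1. The sign also turned for Ldhc with median centring (-0.00024), for Ldha without both arrays (-0.0025) and for Hk1 without both arrays (-0.082), with the block (-0.036) and with array weights (-0.037). Ldhc minus Ldha turned to 0.017 without both arrays and 0.0032 with means over all probe sets, and Pdha2 minus Pdha1 to -0.026 and -0.020. Pdha2, Pgk1, Ldhb, Pdha1, Slc2a3 and Ldhc minus Ldhb kept their sign in every alternative run, with main probe sets or gene means. Pdha2 came as near to 0 as -0.00014 without mutant replicate 3, and Pdha1 as -0.0015 without mutant replicate 8. Single probe sets of Ldhb, Pdha1 and Slc2a3 differed in sign. No paired analysis was possible because no number in the labels occurs in both genotypes.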

Other observations

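The marker lists of other testis cells were described in the same arrays. In the spermatogonia list, 8 of 9 markers with a probe set were higher in mutant testis, and the list mean differed by 0.12 (0.14 without the pair of arrays set apart), at 8.14 to 8.31 in wildtype and 8.26 to 8.40 in mutant arrays. For Sertoli cells, which nourish germ cells with lactate, 10 of 11 markers were higher, with a difference of 0.11 (0.17 without the pair) and list means of 9.50 to 9.57 and 9.54 to 9.77. The Leydig list, of steroid-making cells, differed by 0.17 (0.33 without the pair). It read 9.07 on mutant replicate 3 against 8.46 to 8.77 in wildtype. Mutant replicates 5 and 8 read 8.58 and 8.50, inside a wildtype range whose upper end was wildtype replicate 7. The spermatocyte list differed by -0.03 (-0.020 without the pair), with 3 of 11 markers higher. The peritubular list differed by 0.05 (0.10 without the pair) and the macrophage list by 0.03 (0.14 without the pair). No test was run on these lists. Over all 8 arrays the wildtype and mutant ranges of each list overlapped. Without the pair, the spermatogonia, Sertoli, Leydig and macrophage lists read higher on both mutant arrays than on any wildtype array. The ranges of the spermatocyte and peritubular lists still overlapped. On the same arrays 14.9% of all single probe sets had groups without overlap.

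The fat list differed by -0.22 (-0.62 without the pair). Without the pair it read 5.38 and 5.43 on the mutant arrays, lower than on any wildtype array (5.71 to 6.24). The epididymis list differed by 0.13 over 8 arrays and by -0.13 without the pair, so that no direction is given. Within the epididymis list Crisp1 read 5.82 on wildtype replicate 1 and 6.38 on mutant replicate 8, and 3.17 to 3.34 on the other 6 arrays.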
